A study of Mus musculus with 22 samples.

Results

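The 10 genes described here mark the endothelial cells of blood and lymph vessels, carry signals to them, or encode endothelin peptides: Kdr, Plvap, Lyve1, Pecam1, Cdh5, Tek, Flt1, Vegfa, Edn1 and Edn2. They were chosen by name, with earlier results of these data known. Each was found through the probe set annotated to its symbol, taking the one with the highest mean over the 22 arrays where there were several. All 10 of 10 were measured among 18193 genes. All groups were NOD mice, a strain prone to autoimmune diabetes, and each array held RNA of 1 sample of whole terminal ileum. The groups were PAT, in which antibiotics were given at therapeutic doses in pulses (3 females and 5 males), STAT, in which they were given below the therapeutic dose (3 females and 3 males), and controls (3 females and 5 males). The sources used here name no drug, dose or age, and the labels do not say whether each sample of a group was a separate animal. A p-value here sets a difference only against the spread among samples, part of which may be technical.

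The values are log2 expression levels, on which a difference of 1 is a doubling, and levels are compared between samples of 1 gene but not between genes. A gene was called, or passed, where limma's test gave an adjusted p under 0.05, with Benjamini-Hochberg adjustment across the 18193 genes. For further probe sets of a gene, the adjustment ran instead across all probe sets but the controls, so their adjusted p-values are not on the same footing. Errors beside a log2 difference are standard errors from the same limma model. In the labelled tissue, the 6 epithelial markers had a mean log2 level of 13.01 to 13.30 over the 8 PAT arrays, 12.88 to 13.16 over the 6 STAT arrays and 13.00 to 13.14 over the 8 control arrays. In whole tissue, fewer cells of a type and less RNA per cell cannot be told apart.

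Vascular endothelial growth factor A, the product of Vegfa, is released by epithelial and stromal cells and acts on endothelial cells through the receptors encoded by Kdr, its main signalling receptor, and Flt1, which binds it tightly and limits how much reaches Kdr. The Tek product is the receptor of the angiopoietins, which steady vessel walls. In the gut, capillaries under the epithelium are fenestrated and lymph vessels carry absorbed fat. Endothelins, short peptides cut from longer precursors, act on muscle and vessels through the receptors Ednra and Ednrb.

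The upstream sequence of the 3 ligand genes is shown because they are the secreted members, and because Edn2 and Vegfa had the lowest adjusted p-values of the 10 in the PAT comparison below. Each line holds the 250 bases before the start site in RefSeq's GRCm38.p6 build, written 5′ to 3′ on the gene's own strand. The Edn2 window is chr4:120160956-120161205 (plus strand), the Edn1 window chr13:42301226-42301475 (plus strand) and the Vegfa window, at the first of its listed start sites, chr17:46032378-46032627 (minus strand). Capitals mark a match to any of the 4 motifs searched.
Edn2: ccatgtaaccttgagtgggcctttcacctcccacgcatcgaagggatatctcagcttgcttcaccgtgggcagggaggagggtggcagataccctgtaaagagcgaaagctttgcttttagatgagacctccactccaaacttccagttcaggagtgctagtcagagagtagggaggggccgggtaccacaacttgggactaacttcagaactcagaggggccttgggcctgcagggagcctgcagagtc
Edn1: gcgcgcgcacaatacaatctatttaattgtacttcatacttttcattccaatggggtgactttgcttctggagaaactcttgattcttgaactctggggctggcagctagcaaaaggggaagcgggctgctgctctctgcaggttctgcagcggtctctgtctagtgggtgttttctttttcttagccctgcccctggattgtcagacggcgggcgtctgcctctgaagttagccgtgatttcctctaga
Vegfa: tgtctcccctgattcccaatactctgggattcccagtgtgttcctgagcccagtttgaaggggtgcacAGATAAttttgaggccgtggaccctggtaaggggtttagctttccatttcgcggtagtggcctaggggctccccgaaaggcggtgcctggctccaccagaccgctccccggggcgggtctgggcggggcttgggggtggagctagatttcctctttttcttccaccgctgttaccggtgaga
The motifs were the core of the hypoxia response element, ACGTG, the AP-1 site TGANTCA, the core of ETS factor sites, CCGGAA, and the GATA site AGATAA, each read on both strands. They do not overlap one another in these windows. Over 32851 promoter windows of the same length in the mouse table, 16.6% held ACGTG, 6.75% TGANTCA, 12.0% CCGGAA and 9.99% AGATAA. The Edn2 and Edn1 windows held none of the 4, and the Vegfa window held AGATAA from base -182 to -177, counted back from the start site. The window at the second listed start site of Vegfa, chr17:46025164-46025413 (minus strand), held ACGTG from base -211 to -207 and none of the other 3. On the minus strand lower coordinates come later in the gene, so this window lies past the first start site and not upstream of it. Its match is therefore not in sequence that precedes the whole gene. Windows were on hand for 6 of the 10 genes, Kdr, Tek, Flt1, Vegfa, Edn1 and Edn2, and not for Plvap, Lyve1, Pecam1 and Cdh5. A match is a run of letters and not a measured binding site.

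As an average of the 2 sexes, PAT went with lower Edn2 and with higher Vegfa, Flt1, Kdr, Plvap and Lyve1. Edn2 was 2.98-fold lower and Vegfa 1.83-fold higher in PAT than in control ileum, and the other 4 were 1.21- to 1.4-fold higher. Of the 10 genes, 5 rose, 1 fell and 4 did not pass the test. In the same comparison 11.0% of all genes were called, 4.61% higher and 6.38% lower. The median log2 difference was 0.31 over the 10 genes and -0.0048 over all genes. Within females 2 genes rose, Kdr and Flt1, and 1 fell, Edn2. Of all genes 3.35% were called there (2.27% higher and 1.08% lower), a share that ran from 0.676% to 4.13% with single arrays left out. Within males 2 rose, Flt1 and Vegfa, and 1 fell, Edn2, against 9.02% of all genes called (2.34% higher and 6.68% lower). Kdr, Plvap and Lyve1 did not pass in males.

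**Figure D1:**
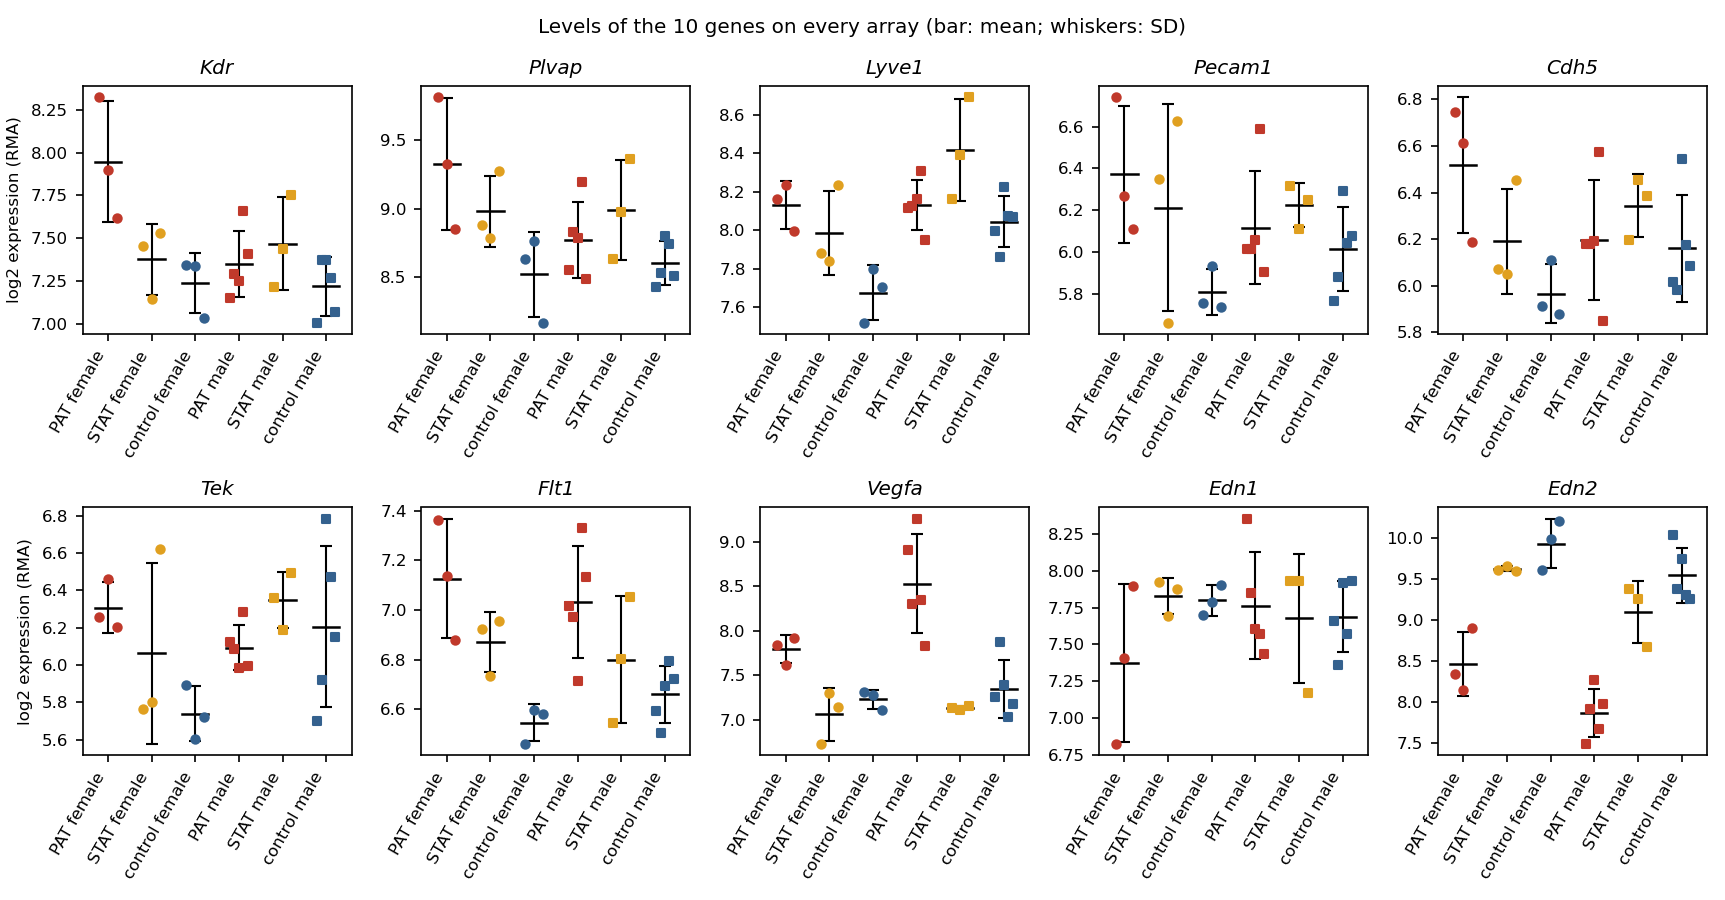
Log2 expression level (vertical axis) of each of the 10 genes on every array, in the 6 groups along the horizontal axis; points are arrays and horizontal bars are group means with whiskers of 1 SD. All 8 PAT points of Edn2, 7.49 to 8.90, lie below all 8 control points, 9.26 to 10.20, while the points of Edn1 overlap between groups.

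Edn2 encodes endothelin 2, an endothelin that in the mouse gut is made largely by epithelial cells. Its log2 level was 8.34, 8.14 and 8.90 in PAT females and 9.60, 9.99 and 10.20 in control females. In males it was 7.49, 7.92, 8.26, 7.67 and 7.98 with PAT, against 10.04, 9.38, 9.74, 9.30 and 9.26 in controls. All 8 PAT arrays thus lay below all 8 control arrays, as they did for 1.15% of all genes. The difference averaged over the sexes was -1.58 ± 0.15 (adjusted p = 2.34e-06, limma), rank 5 of 18193 genes by p-value. Within females it was -1.47 ± 0.23, 2.77-fold (adjusted p = 0.00258, limma), and within males -1.68 ± 0.18, 3.2-fold (adjusted p = 2.59e-05, limma). The arrays did not overlap within either sex, which 13.2% of all genes showed on the lower side in females and 5.29% in males. Leaving out any single array kept each of these 3 calls, with adjusted p-values of up to 2.18e-05 averaged over the sexes, 0.0236 in females and 0.000183 in males.

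Edn1 encodes endothelin 1, the vasoconstrictor that endothelial and epithelial cells release. Its level was 6.83, 7.41 and 7.89 in PAT females, against 7.70, 7.79 and 7.90 in control females, and 8.35, 7.85, 7.60, 7.57 and 7.43 in PAT males, against 7.66, 7.36, 7.92, 7.57 and 7.93 in control males. The groups overlapped in both sexes, and PAT female 1 had the lowest value of the 22 arrays. The difference of -0.17 did not pass the test (adjusted p = 0.557, limma), and its 95% confidence interval ran from -0.50 to 0.15. That interval does not reach the difference of Edn2, although whether the 2 genes differ in response was not tested as such. Among 5 measured of the 6 other genes of the endothelin system, 1 rose and 0 fell with PAT. The one that rose was Ednrb, the receptor that binds all the endothelins alike, at 0.47 ± 0.15, 1.38-fold, with an adjusted p of 0.05 that lay just under the threshold before rounding. That call was lost without any one of 12 of the 16 PAT and control arrays, all but PAT female 3, PAT males 3 and 5 and control male 4. The other 4 measured genes did not pass and stood between -0.38 and 0.24, the value of Ece2, an enzyme that cuts endothelin precursors (adjusted p = 0.0539, limma). Ednra was not analysed here.

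Vegfa was at a log2 level of 7.83, 7.62 and 7.92 in PAT females and 7.30, 7.28 and 7.10 in control females. In males it was 8.91, 8.30, 9.26, 8.35 and 7.83 with PAT and 7.25, 7.87, 7.38, 7.02 and 7.17 in controls. The female arrays did not overlap, and in males PAT male 5, at 7.83, lay below control male 2, at 7.87. Averaged over the sexes the difference was 0.87 ± 0.16 (adjusted p = 0.00153, limma), and no array decided the call, since its adjusted p stayed at or under 0.00654 with each left out in turn. In males it was 1.19 ± 0.20, 2.28-fold (adjusted p = 0.000904, limma). In females it was 0.56 ± 0.25 and did not pass (adjusted p = 0.21, limma). The female effect minus the male effect was -0.62, and this difference did not pass either (adjusted p = 0.298, limma). A second probe set of Vegfa gave 0.55 averaged over the sexes (adjusted p = 0.00872, limma), 0.92 in males and 0.19 in females.

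Flt1 was at 7.36, 7.14 and 6.88 in PAT females, above all 3 control females at 6.46, 6.60 and 6.58. In males it was 7.02, 6.97, 6.71, 7.33 and 7.13 with PAT and 6.59, 6.50, 6.69, 6.79 and 6.72 in controls, where PAT male 3 lay within the range of the controls. The receptor rose by 0.48 ± 0.09 averaged over the sexes, 1.39-fold (adjusted p = 0.0021, limma), a call that held without any 1 array. It also passed within females, at 0.58 ± 0.14 (adjusted p = 0.0322, limma), and within males, at 0.37 ± 0.11 (adjusted p = 0.0412, limma). Those calls within a sex were less secure: the female one was lost without any one of 5 of its 6 arrays, all but PAT female 3, with an adjusted p of up to 0.155, and the male one without any one of 8 of its 10, all but PAT male 3 and control male 4, with an adjusted p of up to 0.111. Of the 3 other Flt1 probe sets, 2 also passed averaged over the sexes, at 0.54 (adjusted p = 0.0234, limma) and 0.40 (adjusted p = 0.0151, limma). The third, which is dim, was at 0.11 and did not pass (adjusted p = 0.524, limma). None of these 3 passed within a sex: the first stood at 0.85 in females and 0.24 in males, and the second at 0.45 and 0.35. Adjusted across all probe sets, the one used above passed in females (adjusted p = 0.0427, limma) and not in males (adjusted p = 0.0519, limma).

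Kdr was at 8.32, 7.90 and 7.62 in PAT females, against 7.34, 7.34 and 7.03 in control females. In males its level was 7.15, 7.29, 7.25, 7.66 and 7.41 with PAT and 7.01, 7.37, 7.37, 7.27 and 7.07 in controls. The female arrays did not overlap and PAT female 1 was the highest of all 22, while the male arrays overlapped. Kdr rose by 0.42 ± 0.11 averaged over the sexes, 1.34-fold (adjusted p = 0.0155, limma), and by 0.71 ± 0.17 in females, 1.64-fold (adjusted p = 0.0299, limma). In males the difference was 0.13 and did not pass. The averaged call was lost without PAT female 1 (0.33, adjusted p = 0.061) or control female 3 (0.37, adjusted p = 0.0572), and the female call without any one of 5 of its 6 arrays, all but PAT female 3.

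Tek was at 6.25, 6.46 and 6.20 in PAT females and 5.89, 5.60 and 5.72 in control females. In males it was 6.12, 6.08, 5.99, 6.28 and 5.99 with PAT and 5.70, 5.92, 6.78, 6.47 and 6.15 in controls. The female arrays did not overlap, whereas in males the controls spanned the PAT arrays on both sides. The angiopoietin receptor did not pass the test averaged over the sexes (0.23, adjusted p = 0.348, limma), in females (0.57, adjusted p = 0.141, limma) or in males (-0.11).

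Plvap encodes the protein of the diaphragms that bridge the pores of fenestrated capillaries. Its level was 9.81, 9.32 and 8.85 in PAT females and 8.63, 8.76 and 8.17 in control females, and in males 8.55, 8.83, 8.79, 9.19 and 8.49 with PAT and 8.43, 8.53, 8.80, 8.74 and 8.51 in controls. Here too the female arrays did not overlap and the male arrays did. Plvap rose by 0.49 ± 0.14 averaged over the sexes, 1.4-fold (adjusted p = 0.0298, limma). Within females the difference was 0.81 ± 0.22 (adjusted p = 0.0502, limma) and within males 0.17, and neither passed. The female difference passed without PAT female 3, at 1.05 (adjusted p = 0.0222, limma). The averaged call was lost without any one of 5 arrays, PAT females 1 and 2, control female 3, PAT male 4 and control male 1, with an adjusted p of up to 0.11.

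Lyve1, the hyaluronan receptor of lymphatic endothelium that some macrophages also carry, was at 8.16, 8.24 and 7.99 in PAT females and 7.52, 7.80 and 7.71 in control females. In males it was 8.12, 8.13, 8.16, 8.31 and 7.95 with PAT and 8.0, 7.86, 8.22, 8.07 and 8.07 in controls. The PAT females lay above the control females and inside the range of the male arrays. Lyve1 rose by 0.27 ± 0.08 averaged over the sexes, 1.21-fold (adjusted p = 0.0407, limma), with 0.46 in females (adjusted p = 0.0593, limma) and 0.09 in males, neither of which passed. It was the least secure of the 6 calls, lost without any one of 9 of the 16 arrays: PAT females 1 and 2, control females 1 and 3, PAT males 2 and 4, and control males 1, 2 and 5. The adjusted p reached 0.121, without control female 1. A second Lyve1 probe set gave 0.28 and did not pass with adjustment across all probe sets (adjusted p = 0.0852, limma). Under that adjustment the first probe set, at 0.27, did not pass either (adjusted p = 0.0519, limma).

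Pecam1 and Cdh5 encode adhesion proteins of the junctions between endothelial cells, and Pecam1 is also carried by platelets and leukocytes. Pecam1 was at 6.74, 6.27 and 6.11 in PAT females and 5.75, 5.93 and 5.74 in control females, and in males at 6.01, 6.01, 6.06, 6.59 and 5.91 with PAT and 5.77, 5.88, 6.29, 6.04 and 6.08 in controls. Cdh5, or VE-cadherin, was at 6.75, 6.61 and 6.19 in PAT females and 5.91, 6.11 and 5.88 in control females, and in males at 6.18, 6.18, 6.19, 6.58 and 5.85 with PAT and 6.01, 5.98, 6.55, 6.17 and 6.09 in controls. Both genes were above every control female in every PAT female and overlapped in males. Neither passed the test: Pecam1 was at 0.33 averaged over the sexes (adjusted p = 0.106, limma) and Cdh5 at 0.29 (adjusted p = 0.0893, limma). In females the differences were 0.56 (adjusted p = 0.118, limma) and 0.55 (adjusted p = 0.0721, limma), and in males 0.10 and 0.03. Without PAT female 3, PAT male 5 or control male 3, Cdh5 passed averaged over the sexes, at 0.34 to 0.37 (adjusted p of 0.0333 to 0.0449), and without PAT female 3 it passed in females, at 0.71 (adjusted p = 0.035, limma). A second Cdh5 probe set, which is dim at a mean log2 level of 3.88, gave 0.03 averaged over the sexes, -0.14 in females and 0.20 in males.

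**Figure D2:**
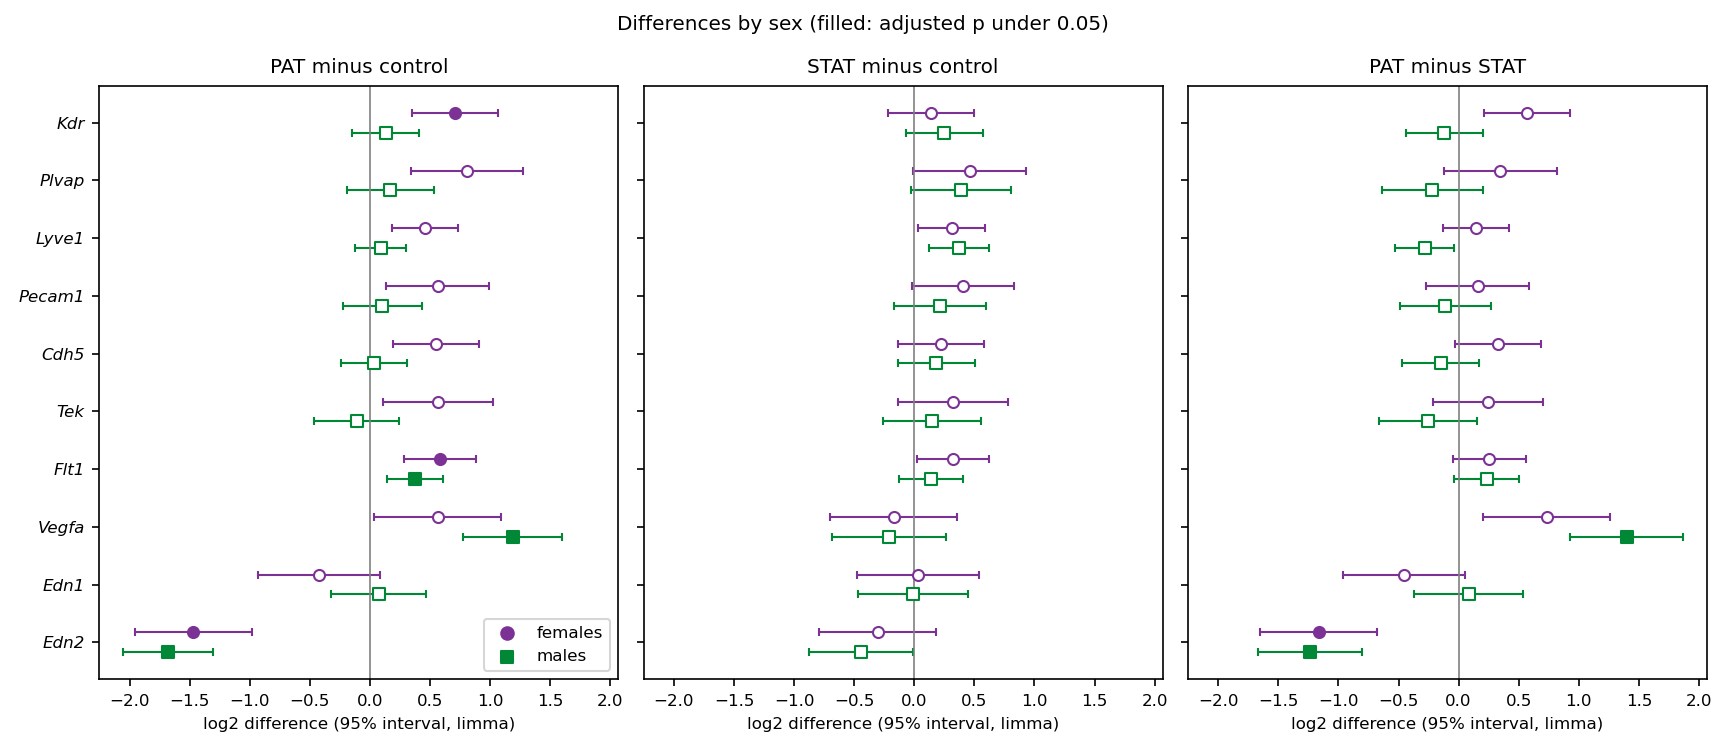
Log2 difference (horizontal axes) of the 10 genes (vertical axis) in females and males, in panels for PAT minus control, STAT minus control and PAT minus STAT; points are limma estimates, filled where the adjusted p was under 0.05, and lines are 95% confidence intervals. In the PAT panel Edn2 stands furthest below 0 in both sexes, at -1.47 in females and -1.68 in males; the comparisons share arrays.

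In females, 8 of the 10 genes (all but Edn1 and Edn2) were higher on every PAT array than on every control array, and 14.7% of all genes were. A PAT effect that differed between the sexes was tested as an interaction, and 1 of 18193 genes passed, Fam122b, which is 0.00550% of them and no member of the group. That count rested on single arrays: it was 59 without PAT female 3, 50 without PAT male 5, 3 without PAT female 1 or PAT male 4, 2 without PAT male 2 or control male 5, and 0 without any one of the other 10. In each of these runs 0 of the 10 genes passed. The female minus the male effect was 0.58 for Kdr, 0.64 for Plvap, 0.37 for Lyve1, 0.52 for Cdh5 and 0.68 for Tek. Each of these 5 had an unadjusted p under 0.05, as 18.6% of all genes did, and adjusted p-values of 0.18 to 0.248 (limma). For Flt1 it was 0.21, for Edn2 0.21 and for Edn1 -0.49, none with an unadjusted p under 0.05. The other 3 Flt1 probe sets gave 0.61, 0.0926 and, for the dim one, -0.0563, and none passed (adjusted p of 0.306 to 0.893, limma). Between control females and control males 0 of the 10 passed, against 0.0550% of all genes, and 2 had an unadjusted p under 0.05. Those were Lyve1, at -0.37 (adjusted p = 0.213, limma), with all control females below all control males as for 5.27% of genes, and Tek, at -0.46 (adjusted p = 0.336, limma). Each sex's PAT effect was taken against the controls of that sex, so this difference between the controls is part of the female minus the male effect.

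Further genes of the same systems were counted from lists that were chosen with earlier results of these data known. Among 25 other genes of blood endothelium, 3 rose and 0 fell averaged over the sexes, beside 4.61% of all genes higher and 6.38% lower, with a median log2 difference of 0.14. They were the guidance receptor Robo4 (0.35, adjusted p = 0.0143, limma), the phosphatase Ptprb that acts on the Tek product (0.46, adjusted p = 0.0301, limma) and the transcription factor Sox18 (0.48, adjusted p = 0.0314, limma). Each of these was lost without either PAT female 1 or control female 1. Ptprb was also lost without PAT female 2, control female 3, PAT male 4 or control male 1, and Sox18 without PAT female 2, control females 2 and 3, PAT male 4 or control males 1 and 2, each alone. In females 1 of the 25 rose, Ptprb (0.79, adjusted p = 0.045, limma), beside 2.27% of all genes higher, and the median was 0.33. In males 0 rose and 1 fell, the apelin receptor Aplnr (-0.64, adjusted p = 0.0434, limma), and the median was 0.02. With 6.68% of all genes lower in males, 1 of 25 is no more than the background. The Ptprb call in females was lost without any one of 5 of the 6 arrays, all but PAT female 3, and the Aplnr call without any one of 8 of the 10, all but PAT male 1 and control male 1. Of 13 other genes of VEGF and angiopoietin signalling 0 passed averaged over the sexes and in females, and in males Notch1 fell by 0.57 on the log2 scale (adjusted p = 0.015, limma), a call lost without PAT male 2. Of 6 measured lymphatic genes, 0 passed, and the median was 0.10.

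Vegfa is a known target of the hypoxia-inducible factors, whose part in its rise was not tested. Of 12 genes in a hypoxia response list 6 rose and 0 fell with PAT, beside 4.61% of all genes higher, with a median of 0.32. Among those 6 were Hif1a and Epas1, which encode subunits of the factors themselves, and the activity of the factors was not measured. Hif1a, which encodes an oxygen-regulated subunit of these factors, was higher on all 8 PAT arrays than on all 8 control arrays, as were 0.544% of genes, and rose by 0.76 ± 0.10 (adjusted p = 4.38e-05, limma). Epas1, which encodes another such subunit, rose by 0.34 (adjusted p = 0.0265, limma). The glucose transporter gene Slc2a1 rose by 0.97 ± 0.24 (adjusted p = 0.0114, limma), the prolyl hydroxylase gene Egln3 by 0.57 ± 0.11 (adjusted p = 0.00172, limma), the collagen-modifying P4ha1 by 0.46 (adjusted p = 0.0182, limma) and the carbonic anhydrase gene Car9 by 0.27 (adjusted p = 0.0124, limma). In females 2 of the 12 passed, Hif1a at 0.76 (adjusted p = 0.0125, limma) and Car9 at 0.40 (adjusted p = 0.042, limma). In males 4 passed, Hif1a at 0.76 (adjusted p = 0.000518, limma), Slc2a1 at 1.19 (adjusted p = 0.0142, limma), Egln3 at 0.78 (adjusted p = 0.000957, limma) and the vasodilator peptide gene Adm at 0.73 (adjusted p = 0.0182, limma). The members not called averaged over the sexes, Adm, Ndrg1, Egln1, Bnip3, Pdk1 and Ankrd37, stood between -0.15 and 0.37 in that comparison. Averaged over the sexes, Epas1 was lost without PAT female 1, PAT female 2 or control female 3, and P4ha1 without control female 2. In females Car9 was lost without any 1 of the 6 arrays and Hif1a without control female 3. In males Slc2a1 was lost without PAT male 2, and Adm without PAT male 2 or control male 1.

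**Figure D3:**
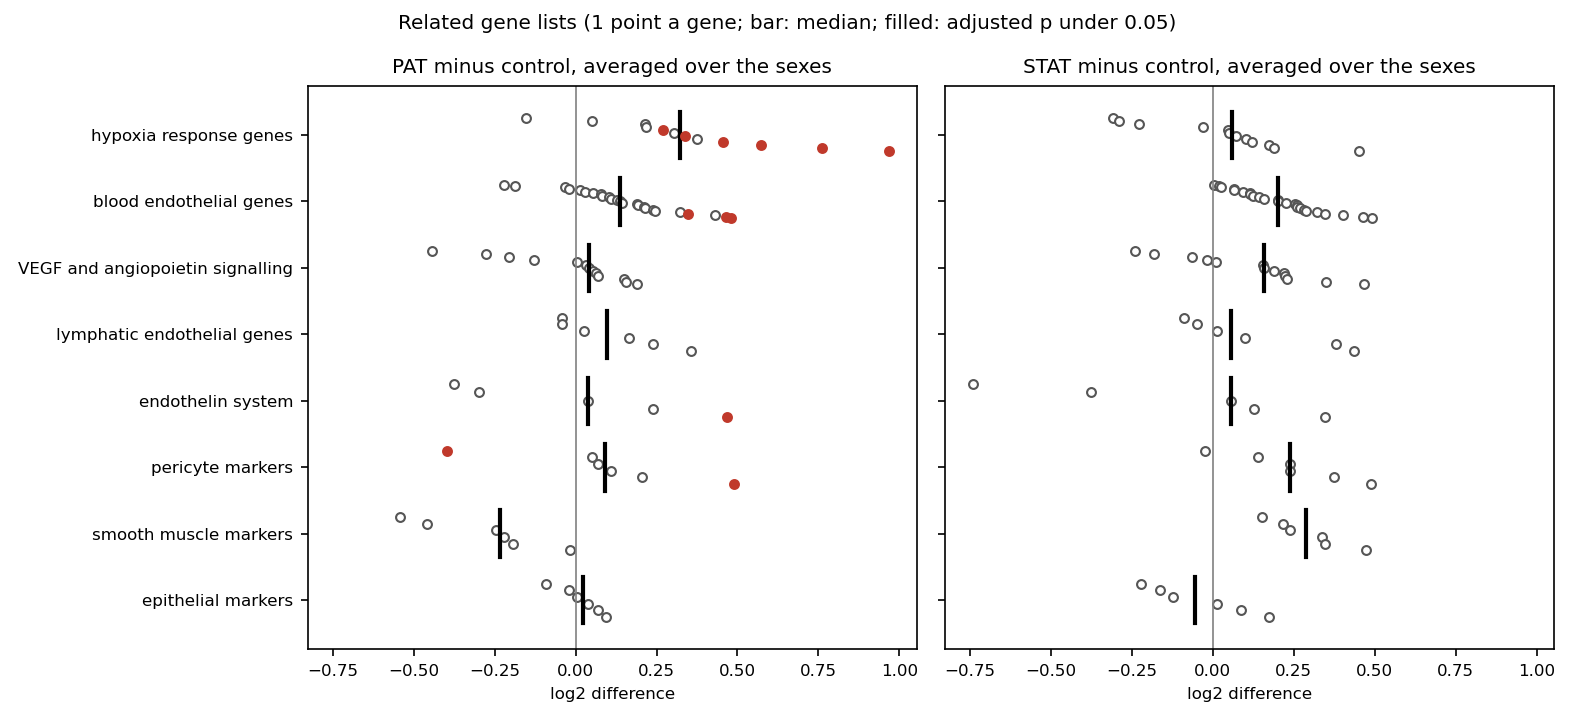
Log2 difference from control, averaged over the sexes (horizontal axes), of every measured gene in 8 lists (vertical axis), with PAT on the left and STAT on the right; points are genes, filled where limma's adjusted p was under 0.05, and bars are list medians. With PAT 6 of the 12 genes in the hypoxia response list are filled, Hif1a and Epas1 among them, all right of 0, and with STAT 0 are.

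Marker levels of other cell types were set beside these results. As a mean over the list, smooth muscle markers were at 10.89 to 11.91 on PAT arrays, 11.49 to 12.42 on STAT arrays and 11.42 to 12.02 on control arrays. Averaged over the sexes, 0 of 6 passed with PAT and 0 of 6 were positive (median -0.23). Macrophage markers, counted because some macrophages carry Lyve1, were at 7.55 to 7.99 on PAT arrays and 7.16 to 8.27 on control arrays, and 0 of 6 passed. By sex, 6 of 6 were positive in PAT females (median 0.37), with a mean level of 7.55 to 7.92 against 7.16 to 7.59 in control females, and 1 of 6 in PAT males (median -0.13), at 7.62 to 7.99 against 7.62 to 8.27 in control males. The female minus the male effect of PAT was positive for 6 of 6 (median 0.54), and control females were below control males for 6 of 6 (median -0.44), as they were for Lyve1. The 25 blood endothelial genes were positive for 23 in the same difference of effects (median 0.34). Platelet and megakaryocyte markers, counted because platelets carry Pecam1, were at 6.47 to 6.74 on PAT arrays and 6.47 to 6.80 on control arrays, and 0 of 5 passed. Adipocyte markers ranged most, from 5.53 to 8.15 on PAT arrays and from 5.28 to 8.83 on control arrays, with 0 of 4 passing. Fibroblast markers (0 of 6 passing) and markers of neurons and glia (0 of 5) also overlapped. Of 6 pericyte markers 2 passed, named here after their values were seen: the growth factor receptor gene Pdgfrb rose (0.49, adjusted p = 0.00648, limma) and the potassium channel gene Kcnj8 fell (-0.40, adjusted p = 0.0189, limma), the second call lost without PAT female 1 or control female 1. The part of these cells in the results was not tested.

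The difference between the array maker's 3-prime and 5-prime Gapdh probe sets, a measure of RNA integrity, averaged -0.12 ± 0.06 on the 8 PAT arrays, -0.12 ± 0.07 on the 6 STAT arrays and -0.21 ± 0.06 on the 8 control arrays (SD), and PAT female 1 had the highest value of all, -0.03. With this measure as a covariate, 2 of the 10 genes passed averaged over the sexes, Vegfa and Edn2. The calls over all genes also fell, to 4.16% with the covariate against 11.0% without it. Flt1 was then at 0.33 (adjusted p = 0.0572, limma), Kdr at 0.29 (adjusted p = 0.226, limma), Plvap at 0.38 (adjusted p = 0.251, limma) and Lyve1 at 0.21 (adjusted p = 0.309, limma). Vegfa and Edn2 were at 1.09 (adjusted p = 0.000945, limma) and -1.60 (adjusted p = 2.48e-05, limma).

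STAT was compared with the same controls as PAT, and there 0 of 18193 genes, and so 0 of the 10, passed limma's test in females, in males or averaged. Outside females this count of 0 rested largely on 1 array: without STAT male 1, 5.79% of all genes were called averaged over the sexes and 10.8% in males, with 1 of the 10 in each, Lyve1. Without control male 4, 3 genes were called in males, none of them among the 10. The median difference over the 10 genes was 0.22 averaged over the sexes, and -0.0039 over all genes. Without adjustment, p was under 0.05 for 5 of the 10 averaged over the sexes (Plvap, Lyve1, Pecam1, Flt1 and Edn2, against 13.1% of all genes), for 2 in females (Lyve1 and Flt1, against 3.31%) and for 2 in males (Lyve1 and Edn2, against 15.7%). Edn2 was at 9.62, 9.66 and 9.60 in STAT females, against 9.60, 9.99 and 10.20 in control females, and at 9.38, 9.26 and 8.67 in STAT males, against 9.26 to 10.04 in control males. Its difference was -0.37 (95% confidence interval -0.70 to -0.05, adjusted p = 0.32, limma). Vegfa was at 6.72, 7.30 and 7.15 in STAT females and 7.13, 7.11 and 7.16 in STAT males, within or below the controls' 7.02 to 7.87. Its difference was -0.19, with an interval from -0.55 to 0.17. A STAT effect that differed between the sexes was found for 0 of 18193 genes, and 0 of the 10 had an unadjusted p under 0.05 (3.44% of all genes had).

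The endothelial markers and receptors were above control in the STAT estimates as well, though none passed. Markers of other cells ran the same way: averaged over the sexes, 6 of 6 smooth muscle markers were positive with STAT (median 0.29), 6 of 6 fibroblast markers (0.28), 5 of 6 pericyte markers (0.24) and 5 of 6 macrophage markers (0.15), and 0 of any list passed. The Gapdh end difference of STAT arrays given above also stood above that of controls, and the part of these in the STAT values was not tested. Plvap, at 8.88, 8.78 and 9.28 in STAT females and 8.63, 8.97 and 9.36 in STAT males, was at 0.42, and Lyve1, at 7.88, 7.84 and 8.23 in females and 8.16, 8.39 and 8.69 in males, at 0.34 (adjusted p = 0.216, limma). Flt1 was at 6.92, 6.73 and 6.96 in STAT females and 6.54, 6.80 and 7.05 in STAT males, a difference of 0.23. Plvap, Lyve1 and Flt1 were higher on every STAT female array than on every control female array, as were 4.79% of all genes. Over the 6 STAT arrays Kdr was at 7.14 to 7.75, Tek at 5.76 to 6.62, Pecam1 at 5.66 to 6.63, Cdh5 at 6.05 to 6.46 and Edn1 at 7.17 to 7.93, all overlapping the controls. Their differences were 0.19 for Kdr, 0.23 for Tek, 0.31 for Pecam1, 0.20 for Cdh5 and 0.01 for Edn1. STAT males 2 and 3 stood apart from the other 20 arrays in the beta-actin end difference, at 0.59 and 0.60 against 0.28 to 0.42. Without both, Kdr in STAT males was at -0.0059.

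Set directly against STAT, PAT had higher Vegfa and lower Edn2, and 2 of the 10 genes passed averaged over the sexes, against 5.88% of all genes. The median difference over the 10 genes was 0.04. Vegfa was 7.62 to 9.26 on the 8 PAT arrays, all above the 6 STAT arrays at 6.72 to 7.30, as for 0.726% of genes. The difference was 1.06 ± 0.17, 2.09-fold (adjusted p = 0.000734, limma). Edn2 was at 7.49 to 8.90 on PAT arrays and 8.67 to 9.66 on STAT arrays, a difference of -1.20 ± 0.16, 2.3-fold (adjusted p = 0.000108, limma). In males both passed, Vegfa at 1.40 ± 0.23 (adjusted p = 0.00119, limma) and Edn2 at -1.24 ± 0.21 (adjusted p = 0.00157, limma), against 8.71% of all genes. That share was 1.40% without STAT male 2, 1.65% without STAT male 3, 0.341% without both, 4.83% without PAT male 2 and 15.6% without STAT male 1. Both genes passed without any 1 array, and without STAT males 2 and 3 together Edn2 passed (adjusted p = 0.0311, limma) and Vegfa did not (adjusted p = 0.115, limma). Those male arrays did not overlap, as for 4.51% of genes on the higher and 7.08% on the lower side. In females 1 of the 10 passed, against 0.863% of all genes, Edn2 at -1.17 ± 0.23 (adjusted p = 0.0218, limma), a call lost without any one of PAT females 1 and 2 and STAT females 1 and 2. In females Vegfa and Kdr were higher on all PAT arrays and Edn2 lower, against 11.2% of genes on either side, but Vegfa (0.73, adjusted p = 0.16, limma) and Kdr (0.57, adjusted p = 0.109, limma) did not pass.

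The endothelial genes were not called between the regimens. Kdr differed by 0.23 (adjusted p = 0.275, limma), Flt1 by 0.24 (adjusted p = 0.146, limma), Plvap by 0.06 and Lyve1 by -0.07 averaged over the sexes. In males Lyve1 was at -0.28 (adjusted p = 0.14, limma) and Kdr at -0.12. Without STAT male 1, Lyve1 was called between the regimens in males, at -0.41 (adjusted p = 0.0316, limma). Averaged over the sexes, 0 of 6 smooth muscle markers were positive between the regimens (median -0.51), with 1 called lower, against 5.88% of all genes called. Positive too were 1 of 6 fibroblast markers (median -0.30), 1 of 6 pericyte markers (-0.21) and 4 of 6 epithelial markers (0.03), with 0 called. The part of these in the endothelial values was not tested.

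Within groups, the 7 endothelial markers and receptors moved together from array to array. Each value was taken as its deviation from the mean of its own group, and the 45 pairs of the 10 genes were correlated over the 22 arrays, with permutation p-values adjusted over the 45. All 21 of 21 pairs among Kdr, Plvap, Lyve1, Pecam1, Cdh5, Tek and Flt1 were positive, with Pearson's r from 0.35 to 0.87. Without 2 arrays r ran from 0.39 to 0.86. Those left out were the 2 farthest from the median of the pair's first gene in this order, so arrays extreme in the second gene could stay in. By Pearson's r 16 of them passed the adjusted test and by Spearman's rho 6 did. Kdr and Plvap gave r = 0.87 (permutation test, adjusted p = 0.00225) and rho = 0.83 (permutation test, adjusted p = 0.00375), and r = 0.82 without PAT females 1 and 3. Plvap and Cdh5 gave r = 0.82 (permutation test, p = 1e-05, the smallest these permutations can give, and 0.00045 adjusted) and rho = 0.84 (permutation test, adjusted p = 0.00135), with r = 0.77 without 2 arrays. The 7 values of an array come from 1 tissue sample, and what lies behind the correlation was not tested. Pairs of other genes were not correlated in this way, so whether such values are particular to the 7 is not known.

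Neither Vegfa nor Edn2 followed the 7. Vegfa had r from -0.54 to 0.08 with them and Edn2 from -0.55 to -0.24, and 0 pairs of either passed after adjustment. Between Vegfa and Edn2 themselves r was 0.08 (permutation test, p = 0.764). Edn1 was the exception among the ligands, with r = -0.68 against Kdr (permutation test, adjusted p = 0.0336). Spearman's rho for this pair did not pass (permutation test, adjusted p = 0.0593), and r was -0.54 without the 2 arrays farthest from the median of Kdr.

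**Figure D4:**
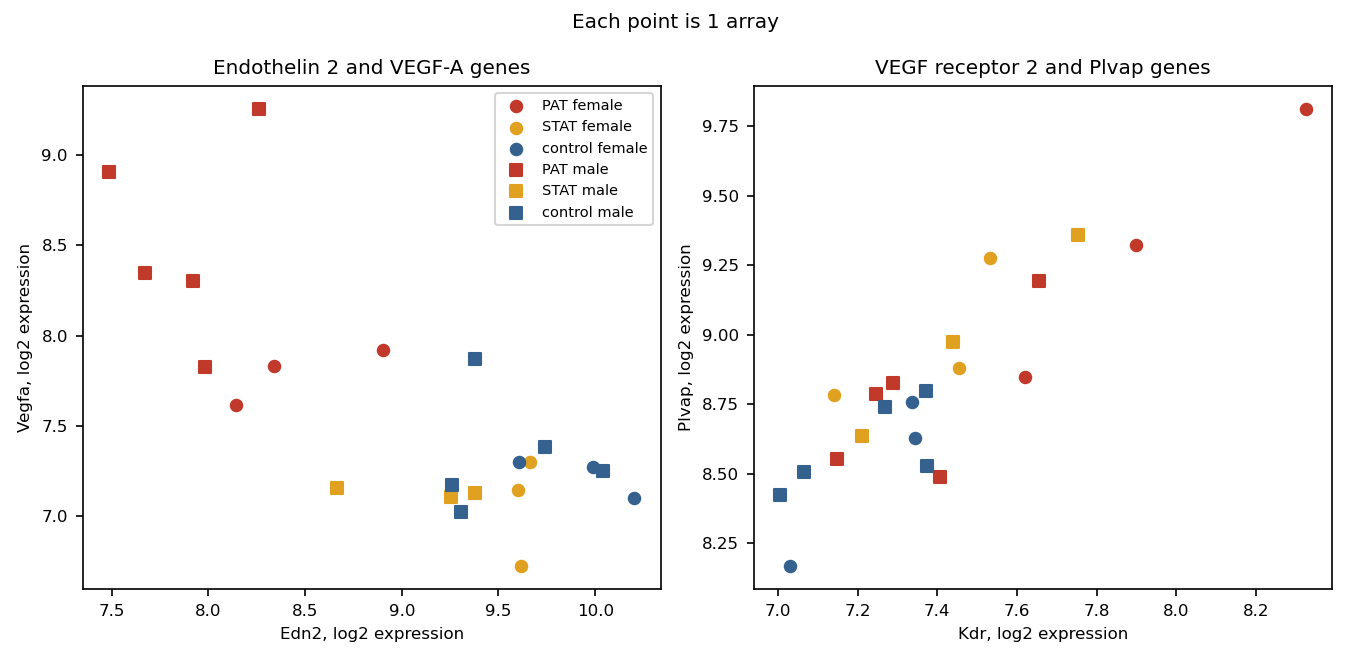
Log2 level of Vegfa against Edn2 (left) and of Plvap against Kdr (right), 1 point per array, with colours for treatment and shapes for sex. On the left panel the 8 PAT arrays have Edn2 at 8.90 or less and the other arrays are at 9.26 or more except STAT male 3, at 8.67; PAT female 1 is at the top right of the Plvap panel, at 9.81 and 8.32.

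The genes whose levels over the 22 arrays were most like those of 3 members are given as a description, without a test, since all share arrays and group differences. For Kdr they were Plvap (r = 0.90), the milk fat globule protein gene Mfge8 (0.90), the basement membrane collagen gene Col18a1 (0.89), BC003965 (0.89) and Nat10 (0.88). For Edn2 they were Tcta (0.92), Sesn1 (0.92), Fam118a (0.91), the adaptor gene Grb7 (0.91) and the inflammatory protease gene Casp1 (0.90). For Edn1 the likeness was lower, at 0.75 for the transcription factor gene Tfcp2l1, 0.73 for the bile acid receptor gene Nr1h4 and for Dnajb4, and 0.72 for Rab27a and Pkn2.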

How the data were processed

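RNA of 22 terminal ileum samples was extracted with TRIzol and RNeasy columns and labelled with biotin for Affymetrix arrays, per the labels' protocols. The authors deposited log2 expression values per probe set, for which the submitters' processing notes name RMA and affy, without versions or later steps. RMA subtracts background, brings arrays to 1 distribution and combines the probes of a set. It gives no detection calls, and it compresses differences of dim genes. Column medians were 5.68 to 5.79, array correlations 0.984 to 0.997, and no arrays held identical values. Precision is limited by the number of arrays.

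Of 45101 probe sets, 64 were controls, 34945 had 1 gene symbol in the platform annotation, 932 several and 9160 none. The brightest probe set stood for a gene, which left 18193 genes. One mean per group of treatment and sex was fitted to all 22 arrays with limma 3.58.1 in R 4.3.3 (16 residual degrees of freedom, with 4.88 added by empirical Bayes). P-values were two-sided, with Benjamini-Hochberg adjustment across all genes and a threshold of 0.05. Where probe sets were tested on their own, the adjustment was across all probe sets but the controls. Pairs of genes were tested with 100000 permutations. Promoter windows are RefSeq's, build GRCm38.p6.

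The genes, lists and tests were chosen with earlier results of these data known. Named beside the 10 genes were up to 6 called genes with the smallest p per list, and the 5 genes most correlated with Kdr, Edn1 and Edn2. On simulated data with 50 genes changed at each size, the comparison of PAT with control averaged over the sexes recovered 36% at a log2 change of 0.3 and 94% at 0.6. The comparison in females recovered 6% and 64%, and that in males 10% and 84%, in each case over 18193 genes. Fewer genes were changed there than were called in the data, so the unadjusted p needed to pass was not the same. These rates therefore need not hold for the data.

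As alternatives, genes were taken as the mean over their probe sets or each probe set was tested alone. Others were a filter at a mean of 6, repeated quantile normalization, median centring, only the groups compared, array weights, a term for title numbers above 130, the Gapdh or beta-actin end difference as a covariate, STAT males 2 and 3 left out, and each array left out in turn.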

Additional observations from a re-analysis of the deposited data

Results flagged for a closer look

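Pecam1 in PAT male 4 was at a log2 level of 6.59, apart from the other 4 PAT males, of which the nearest was at 6.06. The gap was 0.776 of the range of the 5 arrays. Of the 20 sets of 5 arrays looked at, 1 stood out in this way, and chance gives about 1 in 20. The cause was not tested.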

How the results depend on the processing

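The number of the 10 genes called changed by over 1.5 times as follows. With the Gapdh end difference as a covariate, the PAT comparison with control gave 2 genes averaged over the sexes, against 6, and 1 in females, against 3. In females it gave 5 with the filter at a mean of 6, under which 7.40% of all genes were called, against 3.35% without it. It gave 5 in females with the title number term and 6 with array weights. Array weights gave 4 called genes for STAT averaged over the sexes and 4 for STAT males, against 0, while 12.6% and 22.4% of all genes were called under them. The PAT comparison with STAT gave 0 in females with only the groups compared and 2 with the beta-actin covariate, against 1, gave 4 averaged over the sexes with that covariate, against 2, and 1 in males without STAT males 2 and 3, against 2. With each array left out in turn, the PAT comparison with control gave 3 to 7 genes averaged over the sexes (3 without PAT female 1 or control female 3), 1 to 5 in females and 2 to 3 in males. STAT gave 0 to 1 averaged over the sexes and in males (Lyve1, without STAT male 1), and PAT against STAT gave 0 to 1 in females and 2 to 3 in males. The share of all genes called can move with the setting as well. Where no share is printed beside a count, the count alone does not show a change particular to the 10 genes.

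Signs turned only for differences that were not called. With the Gapdh covariate these were Cdh5 in PAT males (-0.0222) and Vegfa with STAT, averaged (0.0023) and in males (0.10). With the beta-actin covariate they were, for STAT, Kdr averaged (-0.0085) and in males (-0.0864), Plvap in males (-0.0271) and Vegfa in males (0.0322), and for PAT against STAT, Lyve1 averaged (0.0285) and Kdr in males (0.18). With array weights they were Edn1 with STAT (-0.0947) and Plvap between PAT and STAT (-0.0508). Without STAT males 2 and 3 they were Kdr in STAT males (-0.0059), Lyve1 averaged (0.0568) and Kdr in males (0.14) between PAT and STAT. With arrays left out in turn, Edn1 with STAT ran from -0.0527 to 0.14, Plvap between PAT and STAT from -0.0566 to 0.18, Kdr between PAT and STAT in males from -0.25 to 0.0242, and the female minus male PAT effect on Edn2 from -0.0109 to 0.37. In PAT males Pecam1 ran from -0.0145 to 0.17, Cdh5 from -0.0606 to 0.13, Tek from -0.24 to 0.0345 and Edn1 from -0.075 to 0.15. The causes were not tested. No paired analysis was possible because the labels give the arrays of different groups no shared replicate number.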
